A study of Mus musculus with 2 samples.

Results

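Vascular smooth muscle cells of the mouse knee synovium, the tissue that lines the joint, are described here from 2 single-cell RNA-seq libraries. The cells were chosen by their counts of unique molecular identifiers (UMIs, each standing for 1 captured transcript). A cell had at least 3 UMIs of Myh11, at least 3 of Acta2, at most 1 of Cdh5 and Pecam1 together, none of Ptprc, and less than 1% of its UMIs from Prg4. This rule found 64 cells among the 10946 that passed the filters on quality, which asked for 1000 or more UMIs and 500 or more genes in a cell and no more than 10% of UMIs from mitochondrial genes. Of these, 43 were among 3871 kept cells of the MMS library and 21 among 7075 kept cells of the control library. The study set MMS model mice at D14 (day 14) against control mice, for which the labels give no day. The labels do not spell out MMS. Mice of both groups were labelled Wild type, and the tissue of 20 knees was pooled for each library, so there was 1 library per group, no replicate and no test of any difference. All intervals given are 95% intervals that cover counting error only, and no spread between animals could be measured.

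Vascular smooth muscle cells wrap arteries, arterioles and larger veins and set the width of the vessel. Contraction starts when calcium enters through voltage-gated channels or leaves the sarcoplasmic reticulum, and myosin light chain kinase (Mylk) then phosphorylates the light chains that pair with smooth muscle myosin (Myh11), which pulls on smooth muscle actin (Acta2). Serum response factor, with its partner myocardin, drives the genes of this apparatus through a short promoter element, the CArG box. Pericytes, which sit on capillaries, are close relatives that share Notch3, Pdgfrb and Rgs5 with smooth muscle but hold little Myh11. In injured vessels of mice, smooth muscle cells can lower their contractile genes and raise matrix genes, a state called modulated.

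The MMS library held 85597195 UMIs over 5286 barcodes and the control library 84900876 UMIs over 8810 barcodes. Smooth muscle cells had a median of 12313 UMIs (1205 to 46140) in the MMS library and 5119 UMIs (1726 to 12509) in the control library. The summed counts behind every level below were 679029 UMIs from MMS cells and 106767 UMIs from control cells. Levels are given as counts per 1000000 summed UMIs (CPM), so 3 UMIs, the limit used for a gene with none, stand for 4.42 CPM in MMS cells and 28.1 CPM in control cells. The method counts the 3' ends of transcripts, so a level does not grow with gene length. The median mitochondrial share was 5.43% in MMS and 4.08% in control smooth muscle cells. A doublet caller marked 1 of the 43 MMS cells and 0 of the 21 control cells. The libraries shared 6 barcodes, 0 of them among these cells. GEO's labels give the cell type of both samples as Goblet cells, a mucus-secreting epithelial type. Of 7 goblet cell markers, Muc2 had 1 UMI over the 43 MMS smooth muscle cells, and the 7 had 0 UMIs over the 21 control smooth muscle cells. The other kept cells were not checked for these markers.

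Smooth muscle cells were 1.11% of kept MMS cells (exact Clopper-Pearson interval 0.805 to 1.49%) and 0.297% of kept control cells (0.184 to 0.453%). The ratio of the shares was 3.74 (interval 2.17 to 6.64). The yield of tissue dissociation was not measured, and the libraries differed in depth. The median kept cell had 17752 UMIs in the MMS library and 11173 in the control library. When every cell was first thinned to 2000 UMIs and 1 UMI each of Myh11 and Acta2 was asked for, 39 of 3662 MMS cells (1.06%) and 28 of 6593 control cells (0.425%) passed. With a mitochondrial limit of 5%, the shares were 0.651% of MMS and 0.220% of control cells. With 6 UMIs of each gene they were 0.827% of MMS and 0.226% of control cells, and with at most 2 UMIs of Rgs5 as well they were 0.258% of MMS cells (10) and 0.0707% of control cells (5). The share was higher in the MMS library under each of the 13 other gates, with ratios from 2.51 to 4.65. Whether more smooth muscle was present in the tissue or more of it came loose cannot be told apart.

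Most cells with both genes fell outside the rule for another reason. At least 3 UMIs of Myh11 and of Acta2 were found in 123 MMS cells and 63 control cells. Of these, 60 MMS and 36 control cells had more than 1 UMI of Cdh5 or Pecam1, 8 MMS and 5 control cells had Ptprc, and 35 MMS and 4 control cells had 1% or more Prg4. A cell could fail more than 1 limit. Without the Prg4 limit, 61 MMS and 24 control cells passed. Just inside the threshold, with 3 or 4 UMIs of Myh11, were 8 MMS cells and 4 control cells, with a median of 64.5 UMIs of Rgs5 in MMS and 37 in control cells. Just outside, with 1 or 2 UMIs of Myh11, were 8 MMS and 8 control cells, with a median of 57.5 UMIs of Rgs5 in MMS and 20.5 in control cells. Another 94 MMS cells and 14 control cells had at least 3 UMIs of Acta2 and none of Myh11.

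The CArG box is shown here in the promoters of 3 contractile genes, because the contractile genes were high in the same cells, as described below. The promoters run from 250 bases before to 50 bases after the start of the gene and come from RefSeq (GRCm38.p6). Capitals mark a CArG box, or a box that departs from it by 1 central base other than A or T. Acta2, smooth muscle actin, lies on the minus strand (chr19:34255324-34255623) and has 2 such near boxes, which start 84 and 34 bases upstream of the gene's start. Myl9, the regulatory myosin light chain, lies on the plus strand (chr2:156775214-156775513), with a box 161 bases and a near box 99 bases upstream. Filip1l, a filamin A interacting protein, has a box 62 bases upstream of one of its starts on the plus strand (chr16:57548992-57549291).
Acta2: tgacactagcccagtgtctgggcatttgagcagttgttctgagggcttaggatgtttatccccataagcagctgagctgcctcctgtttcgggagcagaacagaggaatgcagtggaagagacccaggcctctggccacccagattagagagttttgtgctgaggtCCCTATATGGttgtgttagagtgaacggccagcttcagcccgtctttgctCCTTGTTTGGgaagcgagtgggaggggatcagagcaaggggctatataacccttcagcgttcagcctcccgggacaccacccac
Myl9: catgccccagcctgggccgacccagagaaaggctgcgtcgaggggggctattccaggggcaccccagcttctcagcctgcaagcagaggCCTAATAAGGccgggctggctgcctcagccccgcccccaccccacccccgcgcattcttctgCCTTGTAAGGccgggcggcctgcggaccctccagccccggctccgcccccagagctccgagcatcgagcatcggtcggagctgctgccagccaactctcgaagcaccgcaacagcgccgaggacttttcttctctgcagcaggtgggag
Filip1l: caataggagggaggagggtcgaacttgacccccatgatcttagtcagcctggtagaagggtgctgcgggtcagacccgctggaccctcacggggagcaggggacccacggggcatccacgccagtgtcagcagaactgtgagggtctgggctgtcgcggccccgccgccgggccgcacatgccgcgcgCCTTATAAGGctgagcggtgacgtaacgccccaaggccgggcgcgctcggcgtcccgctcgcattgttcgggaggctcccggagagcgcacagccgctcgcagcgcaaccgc
Of 27 genes looked up (the contractile list with Myh11 and Acta2), 21 had a promoter in the table. A box on either strand was found for 3 of the 21 genes (14.3%), which also include Ldb3, against 488 of 27025 genes (1.81%). Near boxes were found for 4 of the 21 (19.0%), against 2620 of the 27025 genes (9.69%). The 2 patterns did not overlap at any site shown. A match describes the letters of this window and is no sign that a factor was bound.

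The smooth muscle label was checked on markers that the rule did not use. Tagln, the actin-binding protein transgelin, was found in 97.7% of MMS cells and 100% of control cells. The same gene was found in 26.7% of 694 MMS endothelial cells and 6.15% of 1870 control endothelial cells, whose median depth was 7508 UMIs in the MMS and 3763 UMIs in the control library. Its summed level was 6649 CPM in MMS and 4749 CPM in control smooth muscle cells, and 33.6 CPM in MMS and 5.11 CPM in control fibroblasts. Mcam, an adhesion molecule of vessel walls named as a marker, was found in 93.0% of MMS and 66.7% of control cells. Endothelial cells carried Mcam too, in 58.1% of MMS and 16.4% of control cells, so it did not separate the 2 types. After thinning to 2000 UMIs, Tagln was found in 34 of 40 MMS and 18 of 19 control cells, and Mcam in 27 of 40 MMS and 8 of 19 control cells.

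Myocd, the partner of serum response factor, was seen in 30.2% of MMS and 14.3% of control smooth muscle cells, and in 0% of pericytes, endothelial cells and macrophages of both libraries. Cnn1 (calponin) was found in 25.6% of MMS and 57.1% of control smooth muscle cells, with 0 UMIs in the pericytes of both libraries. Notch3, the Notch receptor of mural cells, was found in 97.7% of MMS and 100% of control smooth muscle cells, against 3.89% of MMS and 1.93% of control endothelial cells. Pericyte genes summed to a somewhat lower level in the smooth muscle cells than in pericytes. The 17 genes of the pericyte list summed to 11622 CPM in MMS smooth muscle cells and 14352 CPM in MMS pericytes, and to 7840 CPM in control smooth muscle cells and 10026 CPM in control pericytes. Rgs5, which the pericyte gate asked for, was a large part of each sum, with its levels given below. The sum also mixes unlike MMS cells. Rgs5 was at 299.8 CPM in the MMS cells with Pln, described below, and 9620.4 CPM in the others. The level in the others was above that of the MMS pericytes, given below, so by Rgs5 these cells were not set apart from pericytes. The endothelial, macrophage and several other lists were low. The 11 endothelial markers summed to 314 CPM in MMS and 328 CPM in control smooth muscle cells, against 10378 CPM in MMS and 11137 CPM in control endothelial cells. These markers include Cdh5 and Pecam1, which the rule limited in smooth muscle cells and the endothelial gate required. This contrast was therefore set in part by the gates. Kdr, a vascular endothelial growth factor receptor, was at 0 in both. The 10 macrophage markers summed to 30.9 CPM in MMS and 65.6 CPM in control smooth muscle cells, against 27575 CPM in MMS and 31279 CPM in control macrophages. Csf1r was at 0 in the smooth muscle cells of both libraries. The macrophage gate asked for Csf1r and C1qa, so the level in macrophages was set in part by that gate. Of the marker lists of neutrophils, T and NK cells, Schwann cells, adipocytes, red blood cells and skeletal muscle, 0 genes reached 50 UMIs in smooth muscle cells, and the lists summed to between 2.95 and 76.6 CPM in MMS and between 0 and 56.2 CPM in control cells.

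Fibroblast genes were present. The 12 fibroblast markers summed to 6664 CPM in MMS and 7605 CPM in control smooth muscle cells, against 30479 CPM in MMS and 58405 CPM in control fibroblasts. The fibroblast gate asked for Pdgfra and for Col1a1 and Dcn, so the level in fibroblasts was set in part by that gate. The 9 markers of lining fibroblasts summed to 1433 CPM in MMS and 421 CPM in control smooth muscle cells. Apart from Prg4, which the rule used and which also passed, 1 gene (Fn1) was above the limit of 50 UMIs. Of 10 tendon and cartilage markers, 4 were above it, 3 at least 2-fold higher and 1 at least 2-fold lower in MMS cells, and the list summed to 778 CPM in MMS and 281 CPM in control cells. Over all 2761 genes tested, 11.9% were at least 2-fold higher and 5.4% at least 2-fold lower. Of the 4 markers, 3 (75%, against 4.27% of all genes tested) had 3 or fewer control UMIs. These passed the limit through the deeper MMS cells, so the count describes the genes that passed. Much of this lay in a few cells. Pdgfra, the receptor that marks fibroblasts, was found in 3 MMS cells (28974 to 46140 UMIs) and 1 control cell (9999 UMIs). The 3 MMS cells held 409 of 427 Dcn UMIs, 354 of 364 Lum UMIs, 309 of 312 Spp1 UMIs, 1384 of 2623 Col1a1 UMIs and 414 of 779 Fn1 UMIs of the MMS cells. The deepest of them (46140 UMIs) was the cell that the doublet caller marked. That cell had 3 UMIs of Myh11 and 4 of Acta2, and held 206 of the Dcn, 214 of the Lum and 235 of the Spp1 UMIs. The control cell held 190 of 198 Dcn UMIs and 95 of 166 Col1a1 UMIs of the control cells. The gene list results that rest on these cells are given below with and without them. Prg4, the lubricin of the lining fibroblasts, was at 131 CPM in MMS and 56.2 CPM in control smooth muscle cells. It was at 239.7 CPM in MMS and 128 CPM in control endothelial cells, and at 48433 CPM in MMS and 12315 CPM in control fibroblasts.

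Pericytes were gated in the same way (at least 3 UMIs of Rgs5, at least 1 of Abcc9, Kcnj8 and Higd1b together, and at most 1 of Myh11), which gave 24 cells in each library. Of 3700 genes with at least 50 UMIs over the smooth muscle cells and pericytes of both libraries together, 116 (3.14%) were at least 2-fold higher in smooth muscle cells in both libraries and 79 (2.14%) at least 2-fold lower. Myh11, which both gates used, led by construction. Among genes that no gate used, Cdc42ep3, an effector of the small GTPase Cdc42, had 128 CPM in smooth muscle cells and 7.49 CPM in pericytes of the MMS library, and 253 and 14.8 CPM in those of the control library. Rcan2, a regulator of the phosphatase calcineurin, was higher in smooth muscle cells by a log2 ratio of 3.55 in the MMS and 3.51 in the control library. Myom1, the sarcomere protein myomesin, had 202 CPM in smooth muscle cells and 22.5 CPM in pericytes of the MMS library, and 244 and 29.6 CPM in the control library. Cdc42ep3, Rcan2 and Myom1 had only 1 to 4 UMIs in the pericytes of each library, so the size of these ratios is loose.

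The other genes at the top were Ccl19 (a chemokine of lymphoid tissue), Cnn1, Tagln, Sorbs2 (an adaptor at actin filaments), Nexn (the actin-binding protein nexilin) and Lama5 (a laminin chain), with log2 ratios between 2.59 and 6.12 for those with a UMI in the pericytes of both libraries. Eln, the elastin of arterial walls, was at 405 CPM in smooth muscle cells and 135 CPM in pericytes of the MMS library, and at 889.8 and 37.0 CPM in those of the control library. The 10 genes furthest below pericytes were Selenop (a selenium carrier), Tspan15, Sox4, Gem, Ednrb, Cebpd, Dnajb1, Cygb, Tnfrsf21 and Gadd45b. Cygb, the oxygen-binding cytoglobin, had 536 CPM in smooth muscle cells and 1484 CPM in pericytes of the MMS library, and 375 and 1072 CPM in the control library. Rgs5, a brake on G protein signalling that the pericyte gate used, did not set the 2 types apart by level. Rgs5 stood at 6232 CPM in smooth muscle cells and 5876 CPM in pericytes of the MMS library, and at 2772 and 3756 CPM in those of the control library. The MMS smooth muscle level mixed 299.8 CPM in the cells with Pln, described below, with 9620 CPM in the other MMS cells.

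**Figure D1:**
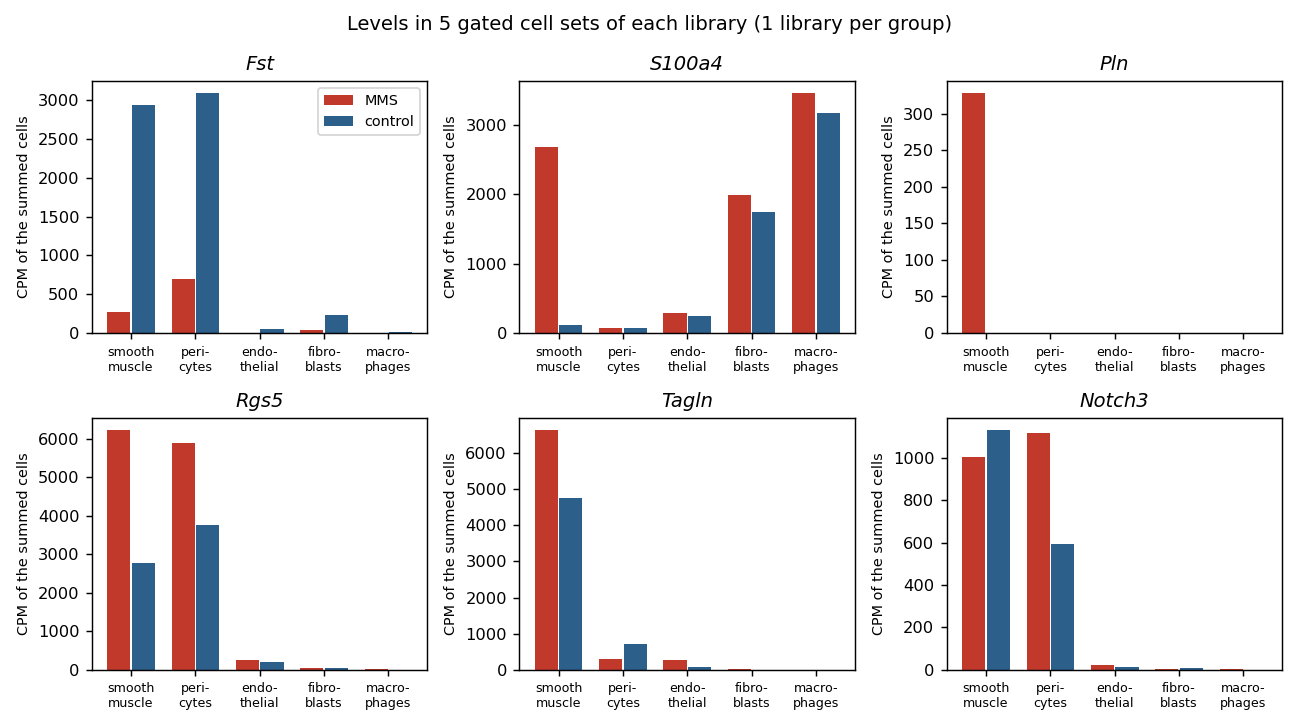
Summed levels (CPM) of 6 genes in smooth muscle cells, pericytes, endothelial cells, fibroblasts and macrophages of the MMS (red) and control (blue) libraries, 1 library per group and so no error bar. Pln stands at 328 CPM in MMS smooth muscle cells and under 1 CPM in every other bar, and Fst is lower in MMS than in control cells for both mural types.

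Among the smooth muscle cells, Myh11, which the rule used, moved with several contractile genes and against Rgs5. Its level per cell (CPM) moved with Mylk (Spearman's rank correlation 0.85 over 43 MMS cells and 0.72 over 21 control cells), Myl9 (0.86 in MMS and 0.69 in control cells) and Tagln (0.83 in MMS and 0.70 in control cells). It moved less with Cnn1 (0.58 in MMS and 0.51 in control cells) and Des (0.27 in MMS and 0.16 in control cells). It moved against Rgs5, with a rank correlation of -0.46 over the MMS cells and -0.57 over the control cells. These cells share a library, and total UMIs had a rank correlation of -0.18 in MMS and -0.60 in control cells with Myh11, so these values describe the cells and carry no test. Rgs5 had a lowest, median and highest level per cell of 0, 5063 and 25745 CPM in MMS cells and 0, 1133 and 8205 CPM in control cells. Myh11 had 65.0, 2071 and 15512 CPM in MMS cells and 239.8, 3770.0 and 15643 CPM in control cells. The ranges of both genes overlapped between the libraries, and the median Rgs5 level was higher among MMS cells.

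**Figure D2:**
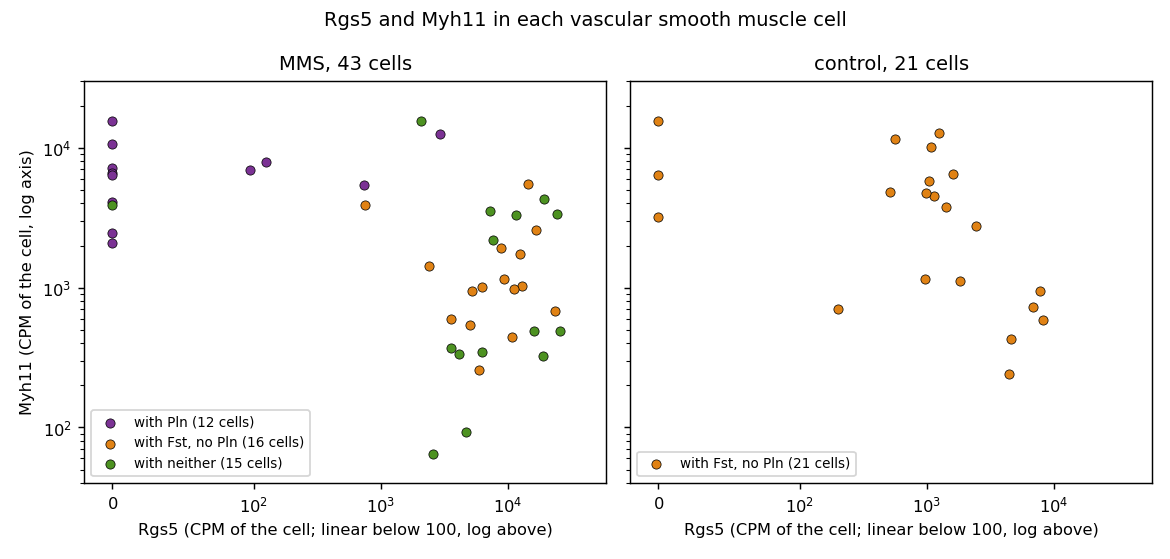
Each point is 1 smooth muscle cell of the MMS (left, 43 cells) or control (right, 21 cells) library, with its Rgs5 level on the horizontal and its Myh11 level on the vertical axis (CPM of the cell). In the MMS library the 12 cells with Pln (purple) lie at low Rgs5 and Myh11 above 2000 CPM, and every control cell carried Fst (orange).

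Pln and Fst split the MMS cells further. This split was chosen after the values had been seen. Pln is phospholamban, which holds back the calcium pump of the sarcoplasmic reticulum, and Fst is follistatin, a secreted protein that binds activins. At least 1 UMI of Pln was found in 12 of 43 MMS cells (27.9%, interval 15.3 to 43.7%) and in 0 of 21 control cells, for which a limit of 3 cells allows a share of cells with a UMI of up to 14.3%. Fst was found in 16 of 43 MMS cells (37.2%, interval 22.98 to 53.3%) and in 21 of 21 control cells (interval 83.9 to 100%). The remaining 15 MMS cells (34.9%) had neither gene, and no cell had both. The MMS cells were the deeper ones. After thinning to 2000 UMIs, Pln was found in 8 of 40 MMS and 0 of 19 control cells, and Fst in 10 of 40 MMS and 19 of 19 control cells. In endothelial cells at the same depth, Pln was found in 0 of 656 MMS and 1 of 1596 control cells, and Fst in 4 of 656 MMS and 41 of 1596 control cells.

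The 12 Pln cells were the contractile end of the MMS cells. Their median depth was 18962 UMIs, they held 36.3% of the UMIs of the MMS cells, and 8 of the 12 had no Rgs5 UMI. Myh11 had a lowest, median and highest level of 2071, 6752 and 15449 CPM in the Pln cells, 257, 1018 and 5512 CPM in the MMS cells with Fst and 65.0, 487 and 15512 CPM in the MMS cells with neither. Of 2361 genes with at least 50 UMIs, 240 (10.2%) were at least 2-fold higher and 298 (12.6%) at least 2-fold lower in the Pln cells than in the other MMS cells, and 47.7% were higher by any amount, with a median log2 ratio of -0.05 over all of them. Of 23 measured contractile genes, 22 were higher in the Pln cells, 17 of them at least 2-fold, with a median of 1.78. Tagln was at 13735 CPM in the Pln cells and 2603 CPM in the other MMS cells (log2 ratio 2.40, 95% interval 2.30 to 2.498). Cnn1 was at 361 CPM in the Pln cells and 27.8 CPM in the other MMS cells, and was found in 9 of the 12 Pln cells, 1 of the 16 with Fst and 1 of the 15 with neither.

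The genes furthest above the other MMS cells, after Pln itself, were Itga8, Susd5, Sorbs2, Mgll, Timp4, Fbxl22, Rasd1, Itpk1 and Rgs7bp. Itga8, the integrin alpha 8 chain of smooth muscle and mesangial cells, had 279.6 CPM in the Pln cells and 2.31 CPM in the other MMS cells, and was found in 12 of the 12 Pln cells and 1 of the others. Sorbs2 had 1386 CPM in the Pln cells and 30.1 CPM in the other MMS cells (log2 ratio 5.53, 95% interval 4.73 to 6.45) and was also found in 12 of the 12. Timp4, an inhibitor of matrix metalloproteinases, had 693 CPM in the Pln cells and 32.4 CPM in the other MMS cells. Synm, the intermediate filament protein synemin, had 652 CPM in the Pln cells and 71.7 CPM in the other MMS cells. Eln was at 769.8 CPM in the Pln cells and 197 CPM in the other MMS cells, and Igfbp5, which binds insulin-like growth factors, at 3314 CPM in the Pln cells and 749.6 CPM in the other MMS cells.

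Most pericyte genes were lower in the Pln cells. Of 15 measured, 10 were lower, 8 at least 2-fold, and 5 were higher, 3 at least 2-fold, with a median log2 ratio of -1.30. The 3 were Sncg, at 1564 CPM in the Pln cells and 282 CPM in the other MMS cells, Rgs4, at 778 CPM in the Pln cells and 287 CPM in the other MMS cells, and Cspg4, at 494 CPM in the Pln cells and 222 CPM in the other MMS cells. Rgs5 had 299.8 CPM in the Pln cells and 9620.4 CPM in the other MMS cells (log2 ratio -5.00, 95% interval -5.36 to -4.67). Abcc9 and Kcnj8, which together form the ATP-sensitive potassium channel of mural cells, both had 8.10 CPM in the Pln cells, against 368 CPM of Abcc9 and 259 CPM of Kcnj8 in the other MMS cells. Vtn (vitronectin) had 4.05 CPM in the Pln cells and 206 CPM in the other MMS cells. Most matrix genes were lower as well. Of 20 elastic and fibrillar matrix genes, 15 were lower in the Pln cells, 13 at least 2-fold, and 5 higher, 3 at least 2-fold (Eln, Emilin1 and Ltbp1), with a median of -2.21. Of 12 basement membrane genes, 9 were lower, 6 at least 2-fold, and 3 higher, of which the laminin chains Lama5 and Lamb2 at least 2-fold. Postn (periostin) had 40.5 CPM in the Pln cells and 1296 CPM in the other MMS cells, Col1a1 1248 CPM in the Pln cells and 5356 CPM in the other MMS cells, Col3a1 1706 CPM in the Pln cells and 9190 CPM in the other MMS cells, and Col4a1, the basement membrane collagen, 1244 CPM in the Pln cells and 4620.4 CPM in the other MMS cells. Of the 3 MMS cells with Pdgfra named above, 1 was a Pln cell and 2 were not, and their part in these values was not tested.

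**Figure D3:**
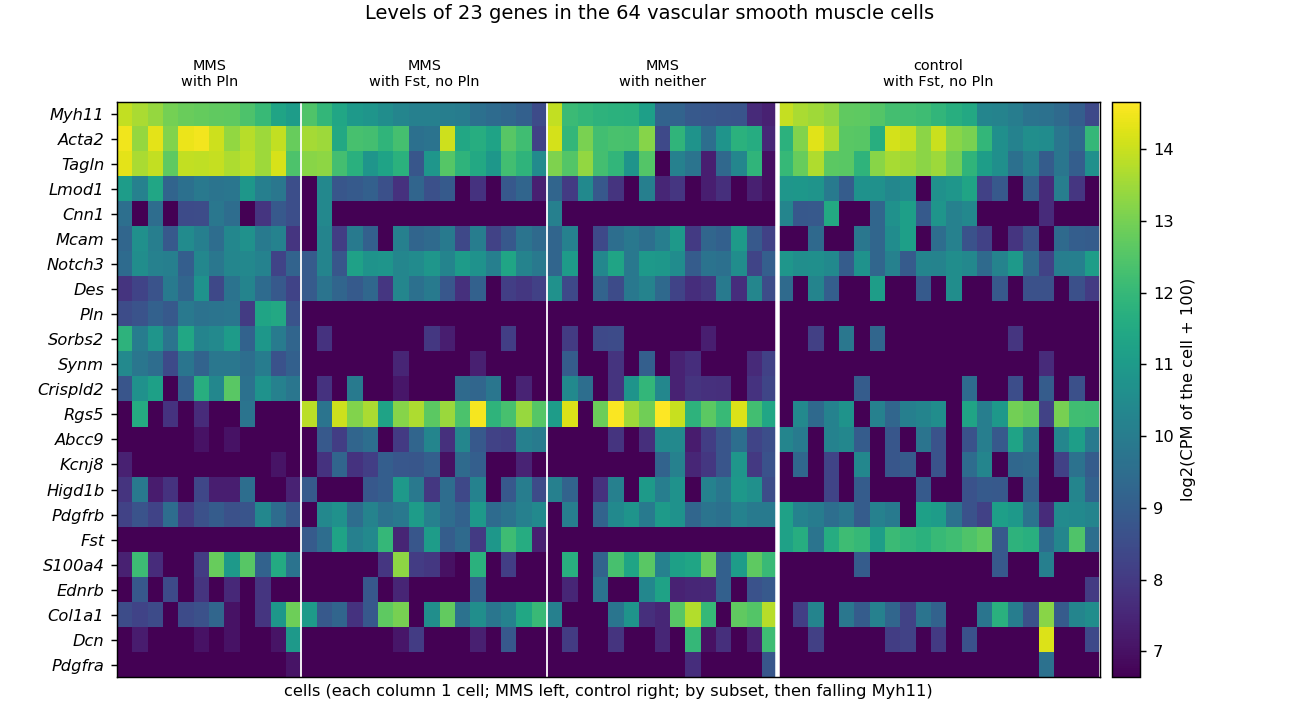
Levels of 23 genes (rows, log2 of CPM plus 100) in the 64 smooth muscle cells (columns), with MMS cells on the left by subset (with Pln, with Fst and no Pln, with neither) and control cells on the right. Sorbs2 and Synm are bright in the 12 MMS cells with Pln, Rgs5 is dark in most of these, and the Fst row is bright across the 21 control cells.

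By Rgs5 class at an equal depth of 2000 UMIs, 11 of 40 MMS cells and 4 of 19 control cells had no Rgs5, 0 MMS and 3 control cells had 1 UMI, and 29 MMS and 12 control cells had 2 or more. Pln was found in 8 of the 11 MMS cells without Rgs5 and in 0 of the 29 with 2 or more. Abcc9 was found in 0 of those 11 and in 13 of those 29 MMS cells. The control cells did not split in this way. Abcc9 was found in 2 of the 4 control cells without Rgs5 and in 9 of the 12 with 2 or more, and Fst in 4 of 4 and 12 of 12. Cells without Rgs5 had a mean of 12.5 Myh11 UMIs per thinned cell in MMS and 14 in control, against a mean of 3.72 in MMS and 5.92 in control cells with 2 or more Rgs5 UMIs.

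Between the libraries, 2761 genes had at least 50 UMIs over the smooth muscle cells of both. Of these, 329 (11.9%) were at least 2-fold higher and 149 (5.4%) at least 2-fold lower in MMS cells, 1602 (58%) were higher by any amount, and the median log2 ratio of MMS over control was 0.14. Scaling by the median gene in place of the total lowers every log2 ratio by 0.13 and gives 275 genes at least 2-fold higher and 197 at least 2-fold lower, so a difference smaller than that has no firm direction. These counts describe 2 libraries of 43 and 21 cells. The makeup of the cells, named above, differed between the libraries, so in a ratio over all cells a different level in the same cells and a different mix of cells cannot be told apart. When only cells with Fst and without Pln were compared, 950 genes had 50 UMIs, of which 91 (9.58%) were at least 2-fold higher and 41 (4.32%) at least 2-fold lower in MMS cells.

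Of 963 genes eligible by the naming rule, 11 of the 12 furthest above control were Synm, S100a4, Tbx2, Adra2a, Abr, Pln, Inf2, Kctd10, Sorbs2, Fgf1 and Itpk1. The order follows in part the limit of 3 UMIs. A gene with 0 control UMIs (10 of the 963) was given a higher control level than one with 1, and so ranked lower at the same MMS level. Susd5, given below, is for this reason not among the 12. Synm (chr7:67730160-67759742, GRCm38) had 192 UMIs in 21 of 43 MMS cells and 1 UMI in 1 of 21 control cells, which is 283 CPM in MMS cells and 9.37 CPM in control cells (log2 ratio 4.92, 95% interval 2.42 to 10.23). Pln (chr10:53337667-53345987) had 223 UMIs in 12 MMS cells and none in control cells, and was at least 11.7-fold higher in MMS cells when the control is put at 3 UMIs. Sorbs2 (chr8:45507788-45827906) was at 523 CPM in MMS cells and 46.8 CPM in control cells (3.48, 95% interval 2.24 to 5.11). For Sorbs2 the direction turned round when the Pln cells were left out, with a log2 ratio of -0.64, and Itpk1, which makes inositol polyphosphates, then had a log2 ratio of 0.57 against 3.31 over all cells. Synm, Abr (a regulator of small GTPases), Inf2 (an actin-assembling formin), Kctd10 and Fgf1 were also higher in MMS without the Pln cells, at log2 ratios of 2.94, 2.89, 2.84, 3.23 and 1.98, each against 1 control UMI. Among cells with Fst their log2 ratios were 1.13, 2.46, 1.46, 3.46 and 1.72, where Synm had 4 UMIs in 2 of 16 MMS cells.

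S100a4 (chr3:90603771-90606045), a calcium-binding protein of motile and activated cells, was at 2683 CPM in MMS cells and 112 CPM in control cells (log2 ratio 4.58, 95% interval 3.77 to 5.53). It was found in 30 of 43 MMS cells and 3 of 21 control cells, with a lowest, median and highest count per cell of 0, 4 and 254 UMIs in MMS cells and 0, 0 and 10 UMIs in control cells. After thinning it was found in 24 of 40 MMS and 3 of 19 control cells. Fibroblasts and macrophages held it at like levels in both libraries, 1986 CPM in MMS and 1740.3 CPM in control fibroblasts and 3456 CPM in MMS and 3175 CPM in control macrophages. Pericytes held little, 74.9 CPM in MMS and 66.5 CPM in control cells, and endothelial cells 284 CPM in MMS and 248 CPM in control cells. Within the MMS cells, S100a4 was at 2038 CPM in cells with Pln (10 of 12 cells), 1891 CPM in cells with Fst (7 of 16) and 4003 CPM in cells with neither (13 of 15). In the cells with Fst, 2 cells held 363 of the 368 UMIs. Without the cells that carry Pdgfra, 1 of which was the control cell with 10 of the 12 control UMIs, the log2 ratio was 7.01.

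Tbx2, a T-box transcription factor, was at 211 CPM in MMS cells and 9.37 CPM in control cells, in 27 MMS cells and 1 control cell. It was found in 12 of 40 MMS and 0 of 19 control cells after thinning, and was also higher without the Pln cells (log2 ratio 3.84). Adra2a, the alpha-2A adrenergic receptor, was at 129.6 CPM in MMS cells and 9.37 CPM in control cells, in 15 MMS cells and 1 control cell. Among MMS cells it was found in 9 of the 16 with Fst, at 252 CPM, and stood at 0 CPM in the cells with Pln. Over cells thinned to 2000 UMIs, Adra2a had 5 UMIs and Itpk1 6 UMIs in MMS cells, each with 0 in control cells, too few for a ratio. For Tbx2, Adra2a and the other genes with 1 control UMI, the interval spans several units on the log2 scale, as for Tbx2 (1.99 to 9.80) and Itpk1 (0.78 to 8.63).

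Of 82 genes eligible in the other direction, the 12 furthest below control were Fst, AY036118, Txnip, Ccn2, Cnn1, Id4, Cited2, Abcc9, Gstm1, Tppp3, Lpl and Cd36. The minimum of 50 UMIs stood for 468 CPM in control cells but 73.6 CPM in MMS cells, so fewer genes were eligible here. Ccn3 and Actg2, given below, were under that minimum and could not be named, though their ratios were lower than all of these but Fst. Fst (chr13:114452290-114458951) was at 277 CPM in MMS cells and 2941 CPM in control cells (log2 ratio -3.41, 95% interval -3.68 to -3.14). Its lowest, median and highest count per cell were 0, 0 and 41 UMIs in MMS cells and 1, 13 and 38 UMIs in control cells. In the 16 MMS cells that held it, the level was 966 CPM, also below the 2941 CPM of the control cells. Fst was lower in MMS cells of the other gated types too, at 689.5 CPM in MMS and 3090.5 CPM in control pericytes, 33.4 CPM in MMS and 238 CPM in control fibroblasts, and 4.52 CPM in MMS and 50.04 CPM in control endothelial cells. After thinning it was found in 13 of 23 MMS and 19 of 22 control pericytes.

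Txnip, which binds thioredoxin and limits glucose uptake, was at 292 CPM in MMS cells and 1227 CPM in control cells (-2.07, 95% interval -2.40 to -1.74), and was also lower in MMS endothelial cells (627 CPM, against 2001 CPM in control) and MMS fibroblasts (128 CPM, against 484 CPM in control). Ccn2, a matricellular target of TGF-beta and YAP signalling, was at 147 CPM in MMS cells and 581 CPM in control cells (-1.98, 95% interval -2.45 to -1.50). Cnn1 (chr9:22099216-22109630) was at 149 CPM in MMS cells and 562 CPM in control cells (-1.92, 95% interval -2.39 to -1.43), in 11 MMS and 12 control cells. Without the Pln cells, Cnn1 had a log2 ratio of -4.34, and among cells with at most 2 UMIs of Rgs5 it was 0.29. Id4, an inhibitor of basic helix-loop-helix factors, was at 317 CPM in MMS cells and 1105 CPM in control cells, and had a log2 ratio of -0.41 among cells with Fst. Id4 was higher in MMS pericytes, at 352 CPM in MMS and 185 CPM in control cells. Abcc9 was at 237 CPM in MMS cells and 796 CPM in control cells, in 26 MMS and 16 control cells, and without the Pln cells its log2 ratio was -1.11 in place of -1.75.

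Lpl (lipoprotein lipase) was at 239 CPM in MMS cells and 777 CPM in control cells, and Cd36, a fatty acid receptor, at 243 CPM in MMS cells and 739.9 CPM in control cells, in 20 MMS and 7 control cells. Tppp3, a tubulin-binding protein of tendon sheath and mesenchymal progenitors, was at 492 CPM in MMS cells and 1620.3 CPM in control cells, and 1 cell held 38.02% of its MMS UMIs and 1 cell 39.9% of its control UMIs. Without the deepest cell of each library the log2 ratio was -1.07 for Tppp3, -1.24 for Lpl and -1.08 for Cd36, against -1.72, -1.70 and -1.61 with them. The deepest control cell was the one with the most Tppp3, but the deepest MMS cell was not, so the MMS cell with the most Tppp3 stayed in. Cited2, a transcriptional co-regulator, was at 168 CPM in MMS cells and 581 CPM in control cells. Gstm1, a glutathione transferase whose reads may be shared with close paralogs, was at 396 CPM in MMS cells and 1321 CPM in control cells. AY036118 was at 371 CPM in MMS cells and 1686 CPM in control cells.

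**Figure D4:**
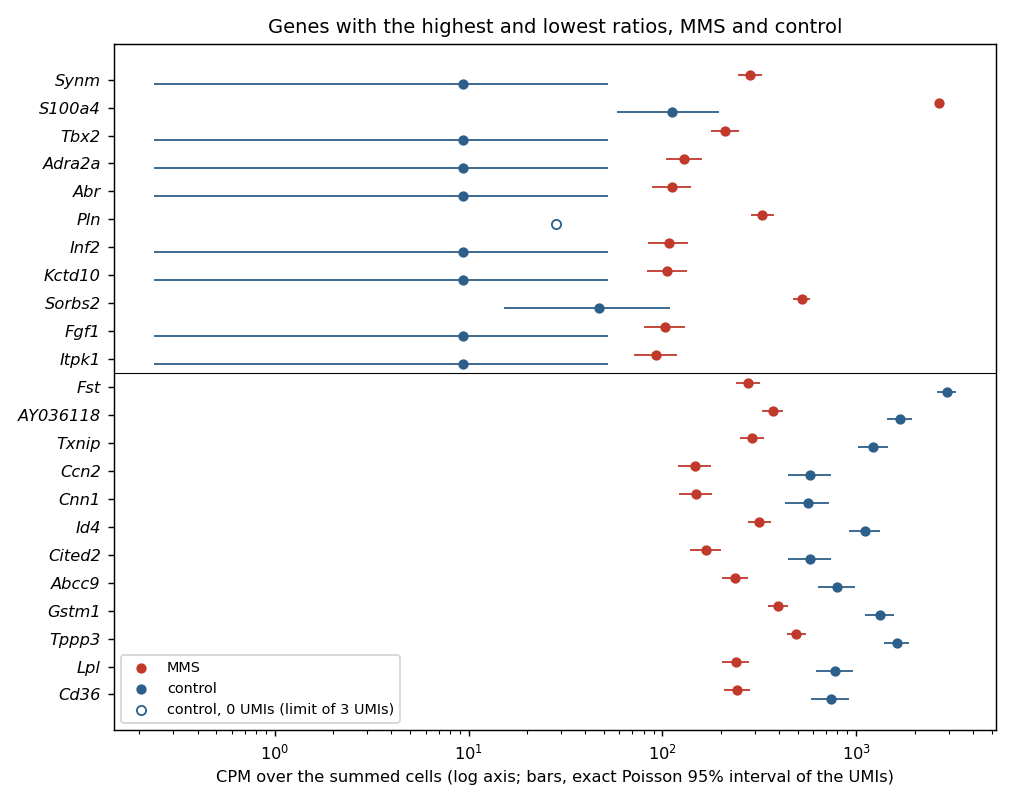
Summed levels (CPM, log axis) of 11 of the 12 genes with the highest (top) and the 12 with the lowest (bottom) ratio of MMS (red) over control (blue) in smooth muscle cells, among genes eligible by the naming rule, with exact Poisson 95% intervals of the counts, 1 library per group. Most control points in the upper block rest on 1 UMI (9.37 CPM) with wide intervals, while Fst, at 277 CPM in MMS and 2941 CPM in control cells, has narrow ones.

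The contractile apparatus as a whole did not lean one way over all cells. Of 25 genes on the list (Myh11 and Acta2 apart), 23 had at least 50 UMIs. Of these, 11 were higher and 12 lower in MMS cells (4 at least 2-fold higher and 3 at least 2-fold lower), and the median log2 ratio was -0.07, against 0.14 over all genes. Acta2 (chr19:34241090-34255590) and Myh11 (chr16:14194535-14291372), which the rule used, were at 8063 CPM (Acta2) and 3103 CPM (Myh11) in MMS cells and 6978 CPM (Acta2) and 3681 CPM (Myh11) in control cells. Tagln was at 6649 CPM in MMS cells and 4749 CPM in control cells (log2 ratio 0.49, 95% interval 0.35 to 0.62). Myl9 was at 3109 CPM in MMS cells and 2829 CPM in control cells (0.14, 95% interval -0.04 to 0.32), and Mylk, the kinase that acts on it, at 1608 CPM in MMS cells and 1723 CPM in control cells. Des, the filament protein desmin, was at 507 CPM in MMS cells and 262 CPM in control cells (0.95, 95% interval 0.39 to 1.56), found in 23 of 40 MMS and 5 of 19 control cells after thinning. Cald1 (caldesmon, which holds back actomyosin) was at 2352 CPM in MMS cells and 1705 CPM in control cells.

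Lower were Actg2, the enteric smooth muscle actin, at 76.6 CPM in MMS cells and 431 CPM in control cells (-2.49, 95% interval -3.09 to -1.89), in 9 MMS and 9 control cells, and Lmod1 (leiomodin, which nucleates actin filaments), at 505 CPM in MMS cells and 777 CPM in control cells (-0.62, 95% interval -0.97 to -0.26). Filip1l, whose promoter is shown above, was at 1081 CPM in MMS cells and 2426 CPM in control cells (-1.17, 95% interval -1.37 to -0.96), and Ppp1r14a, the inhibitor of myosin phosphatase known as CPI-17, at 462 CPM in MMS cells and 843 CPM in control cells. Higher were Smtn (smoothelin), at 216 CPM in MMS cells and 84.3 CPM in control cells, Pcp4l1 at 353 CPM in MMS cells and 103 CPM in control cells, Itga8 at 103 CPM in MMS cells and 46.8 CPM in control cells and Mcam at 748 CPM in MMS cells and 449.6 CPM in control cells. Susd5 was at 100.1 CPM in MMS cells, with 0 UMIs in control cells. The list turned on which cells were compared. Its median was -1.12 over 20 genes without the Pln cells, -0.58 over 17 genes among cells with Fst, and 1.35 over 22 genes among the 10 MMS and 5 control cells with at most 2 UMIs of Rgs5. With the gate on thinned cells it was 0.53 over 23 genes.

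Of 21 genes for calcium handling and ion channels, 11 were measured, of which 5 were higher and 6 lower in MMS cells, 2 and 4 at least 2-fold, with a median log2 ratio of -0.02. The shares over all 2761 genes were 11.9% at least 2-fold higher and 5.4% at least 2-fold lower. Pln was 1 of the 2 at least 2-fold higher ones. Atp2a2, the calcium pump that Pln inhibits, was at 567 CPM in MMS cells and 384 CPM in control cells. The potassium channel pair was lower, with Kcnj8 at 168 CPM in MMS cells and 375 CPM in control cells and Abcc9 as given above. Cacna1c, the main voltage-gated calcium channel of smooth muscle, was at 76.6 CPM in MMS cells and 169 CPM in control cells, and Stim1, a sensor of stored calcium, at 85.4 CPM in MMS cells and 187 CPM in control cells. Below the limit of 50 UMIs, Kcnmb1, a subunit of the large calcium-activated potassium channel, had 37 UMIs in MMS cells, Kcna5 had 34 and Cacna1h 34, all with 0 UMIs in control cells. Casq2, a calcium store protein, had 41 UMIs in MMS and 2 in control cells, and Ryr2, the ryanodine receptor, 27 in MMS and 1 in control cells. At 28.1 CPM for 3 UMIs, genes at this level were near the limit of what the control cells could show.

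Of 30 receptors and effectors of vasoactive signals, 12 were measured, 9 higher and 3 lower in MMS cells, 4 at least 2-fold higher and 0 at least 2-fold lower, with a median of 0.49, against 58% of all 2761 genes higher and 11.9% at least 2-fold higher. Without the Prg4 limit the median was 0.03 over 13 genes. Ednrb, the endothelin B receptor, was at 183 CPM in MMS cells and 18.7 CPM in control cells (3.29, 95% interval 1.40 to 6.35), in 18 MMS cells and 1 control cell. S1pr3, a receptor for sphingosine 1-phosphate, was at 161 CPM in MMS cells and 37.5 CPM in control cells (2.10, 95% interval 0.70 to 4.001), and Rgs4, a relative of Rgs5, at 465 CPM in MMS cells and 187 CPM in control cells. Ednra, the endothelin A receptor, was at 256 CPM in MMS cells and 159 CPM in control cells, and Npy1r, a neuropeptide Y receptor, at 286 CPM in MMS cells and 262 CPM in control cells. The nitric oxide receptor subunit Gucy1a1 was at 536 CPM in MMS cells and 431 CPM in control cells, and the phosphodiesterase Pde3a at 299 CPM in MMS cells and 187 CPM in control cells.

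Of 17 pericyte genes, which share Kcnj8, Abcc9, Rgs4 and Ednra with other lists, 15 were measured, 9 higher and 6 lower in MMS cells, 6 and 4 at least 2-fold, with a median of 0.69. Over all 2761 genes, 58% were higher, 11.9% at least 2-fold higher and 5.4% at least 2-fold lower. Rgs5 was at 6232 CPM in MMS cells and 2772 CPM in control cells (log2 ratio 1.17, 95% interval 0.998 to 1.34). Higd1b and Ndufa4l2, mitochondrial proteins of mural cells, were at 554 CPM in MMS cells and 225 CPM in control cells and at 820.3 CPM in MMS cells and 365 CPM in control cells. Gja4 (connexin 37) was at 211 CPM in MMS cells and 65.6 CPM in control cells, Sncg (gamma-synuclein) at 748 CPM in MMS cells and 206 CPM in control cells, and Cspg4, the proteoglycan NG2, at 321 CPM in MMS cells and 169 CPM in control cells. Pdgfrb, the receptor that recruits mural cells to vessels, was at 767 CPM in MMS cells and 1002 CPM in control cells. Steap4, a metal reductase, was lower at 345 CPM in MMS cells and 777 CPM in control cells, and so was Art3 at 82.5 CPM in MMS cells and 272 CPM in control cells. With at least 6 UMIs each of Myh11 and Acta2 the median was 1.65, and with at most 2 UMIs of Rgs5 it was 1.84 over 5 genes. Without the Prg4 limit the median turned round to -0.06 over 15 genes.

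Of 13 genes of the Notch pathway, 8 were measured, 6 higher and 2 lower in MMS cells, 3 at least 2-fold higher, with a median of 0.65. The shares over all 2761 genes were 58% higher and 11.9% at least 2-fold higher. Of the 8 genes, 2 (25%, against 4.27% of all genes tested) had 3 or fewer control UMIs. These passed the limit through the deeper MMS cells, so the count describes the genes that passed. Notch3 itself was at 1006 CPM in MMS cells and 1133 CPM in control cells. Its targets Heyl and Nrarp were at 121 CPM in MMS cells and 28.1 CPM in control cells (2.10, 95% interval 0.51 to 4.41) and at 103 CPM in MMS cells and 28.1 CPM in control cells, and Hes1 at 297 CPM in MMS cells and 159 CPM in control cells. Nrip2 was at 189 CPM in MMS cells and 56.2 CPM in control cells. Jag1, a ligand made by vessel walls, was at 236 CPM in MMS cells and 215 CPM in control cells. Without the Pln cells, 3 of the genes were measured, with a median of -0.08.

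Over all 2761 genes, 58% were higher in MMS cells, 11.9% at least 2-fold higher and 5.4% at least 2-fold lower, for comparison with the 2 lists here. Of 16 basement membrane genes, 12 were measured, 9 higher and 3 lower in MMS cells, 1 and 1 at least 2-fold, with a median of 0.13. Col18a1 was at 1160.5 CPM in MMS cells and 299.7 CPM in control cells (1.95, 95% interval 1.44 to 2.51), Col4a1 at 3393 CPM in MMS cells and 2482 CPM in control cells, and Lama4, the laminin alpha 4 chain, lower at 178 CPM in MMS cells and 403 CPM in control cells. Of 24 elastic and fibrillar matrix genes, 20 were measured, 15 higher and 5 lower in MMS cells, 7 and 3 at least 2-fold, with a median of 0.84. Col1a1 and Col3a1, the fibrillar collagens, were at 3863 CPM in MMS cells and 1555 CPM in control cells and at 6469.5 CPM in MMS cells and 4084 CPM in control cells. Bgn (biglycan) was at 1551 CPM in MMS cells and 637 CPM in control cells, Fbn1 (fibrillin 1) at 378 CPM in MMS cells and 149.9 CPM in control cells, and Loxl1, which cross-links elastin, at 138 CPM in MMS cells and 9.37 CPM in control cells, in 21 MMS cells and 1 control cell. Eln was lower, at 405 CPM in MMS cells and 889.8 CPM in control cells (-1.14, 95% interval -1.48 to -0.78), as were Postn at 839 CPM in MMS cells and 1770.2 CPM in control cells and Mfap5, a microfibril protein, at 95.7 CPM in MMS cells and 290.4 CPM in control cells. Without the cells that carry Pdgfra the median was 0.64 over 17 genes, and among cells with at most 2 UMIs of Rgs5 it was -1.56 over 10 genes. Without only the cell called a doublet it was 0.60 over 18 genes.

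Of 21 genes of modulated smooth muscle, a list drawn from injured and atherosclerotic arteries, 14 were measured, 10 higher and 4 lower in MMS cells, 8 and 2 at least 2-fold, with a median of 1.54, against 11.9% of all 2761 genes at least 2-fold higher and 5.4% at least 2-fold lower. Of the 14, 4 had 3 or fewer control UMIs (28.6%, against 4.27% of all genes tested) and passed the minimum of 50 UMIs through the deeper MMS cells, so the count and the median describe the genes that passed. Tnc (tenascin C) was at 227 CPM in MMS cells and 9.37 CPM in control cells (4.60, 95% interval 2.10 to 9.91), in 19 MMS cells and 1 control cell, and Timp1 at 175 CPM in MMS cells and 9.37 CPM in control cells, in 15 MMS cells and 1 control cell. A single cell held 45.5% of the MMS UMIs of Tnc and 1 cell 52.9% of those of Timp1. Mgp, an inhibitor of calcification, was at 3992 CPM in MMS cells and 1705 CPM in control cells (1.23, 95% interval 1.01 to 1.45), in 31 MMS and 10 control cells. Vim (vimentin) was at 5745 CPM in MMS cells and 3746 CPM in control cells. Fn1 (fibronectin) was at 1147 CPM in MMS cells and 318 CPM in control cells, with 414 of its 779 MMS UMIs in the 3 cells with Pdgfra, and Spp1 and Lum rested almost wholly on those 3 cells. Dcn (decorin), lower at 629 CPM in MMS cells and 1855 CPM in control cells, rested on the same few cells in both libraries. Without them, 8 genes of the list were measured, with a median of 0.97. Without only the MMS cell called a doublet, 13 were measured, with a median of 1.23. Among cells with Fst the median was -0.01 over 8 genes, 4 higher and 4 lower in MMS cells.

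Of 23 genes of TGF-beta, BMP and CCN signalling, 17 were measured, 8 higher and 9 lower in MMS cells, 4 and 4 at least 2-fold, with a median of -0.10. The shares over all 2761 genes were 11.9% at least 2-fold higher and 5.4% at least 2-fold lower. Of the 17 genes, 3 (17.6%, against 4.27% of all genes tested) had 3 or fewer control UMIs. All 3 CCN genes, which code for secreted matricellular proteins, were lower. Ccn3 was at 50.1 CPM in MMS cells and 337 CPM in control cells (-2.75, 95% interval -3.47 to -2.03), found in 1 of 40 MMS and 12 of 19 control cells after thinning. Ccn1 was at 490.4 CPM in MMS cells and 937 CPM in control cells. Bmp2, a ligand of the BMP family, was at 85.4 CPM in MMS cells and 262 CPM in control cells, and the BMP target Id3 was higher, at 1109 CPM in MMS cells and 543 CPM in control cells. Inhba, the activin A subunit whose protein Fst binds, was at 102 CPM in 16 MMS cells, with 0 UMIs in control cells, and Tgfb3 was at 133 CPM in MMS cells and 28.1 CPM in control cells. By subset, Inhba was at 247 CPM in the Pln cells and 18.5 CPM in the other MMS cells.

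Of 20 genes of the growth factor axis, 10 were measured, 5 higher and 5 lower in MMS cells, 3 and 1 at least 2-fold, with a median of 0.13. For this list and the immediate early list below, the shares over all 2761 genes were 11.9% at least 2-fold higher and 5.4% at least 2-fold lower. Pdgfa, a platelet-derived growth factor, was at 526 CPM in MMS cells and 206 CPM in control cells. Igfbp5 was lower, at 1682 CPM in MMS cells and 3166 CPM in control cells (-0.91, 95% interval -1.09 to -0.73), and in the MMS library it lay mostly in the Pln cells. Cxcl12, a chemokine made by vessel walls, was at 247 CPM in MMS cells and 590.1 CPM in control cells. Igf1 was at 277 CPM in MMS cells and 84.3 CPM in control cells, in 5 MMS and 3 control cells. Of 20 immediate early and stress genes, all were measured, 7 higher and 13 lower in MMS cells, 2 and 5 at least 2-fold, with a median of -0.31. Jun was at 733 CPM in MMS cells and 1939 CPM in control cells, Fos at 2137 CPM in MMS cells and 2079 CPM in control cells, and Ier2 at 306 CPM in MMS cells and 56.2 CPM in control cells. Genes of this kind are known to respond to tissue digestion, and the part of this list in the other results was not tested. Hspa1a and Hspa1b on that list are near-identical copies, and their counts may be split between them.

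Of 20 inflammatory genes, 9 were measured, 6 higher and 3 lower in MMS cells, 2 and 2 at least 2-fold, with a median of 0.22. Nfkbia, the inhibitor that NF-kappaB induces, was at 252 CPM in MMS cells and 56.2 CPM in control cells. Il6 was lower, at 95.7 CPM in MMS cells and 393 CPM in control cells, in 6 MMS and 3 control cells, and Cxcl1, which draws neutrophils, was at 356 CPM in MMS cells and 347 CPM in control cells. Ccl2 was at 108 CPM in MMS cells, with 0 UMIs in control cells, and 52 of its UMIs lay in 1 cell. Of 16 interferon-induced genes only Ifitm3 was measured, at 1205 CPM in MMS cells and 1068 CPM in control cells. Of 17 genes of glycolysis and hypoxia, 9 were measured, 7 higher and 2 lower in MMS cells, 2 at least 2-fold higher, with a median of 0.82. Over all 2761 genes, 58% were higher and 11.9% at least 2-fold higher. Ldha (lactate dehydrogenase) was at 356 CPM in MMS cells and 93.7 CPM in control cells, and Gapdh at 776 CPM in MMS cells and 440.2 CPM in control cells. Of 14 proliferation genes, 4 were measured, and 1 MMS cell held 50 of the 50 Mki67 UMIs and 62 of the 65 Top2a UMIs. Housekeeping genes gave a median of 0.11, with 5 of 9 higher, 4 lower and 0 at least 2-fold either way.

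**Figure D5:**
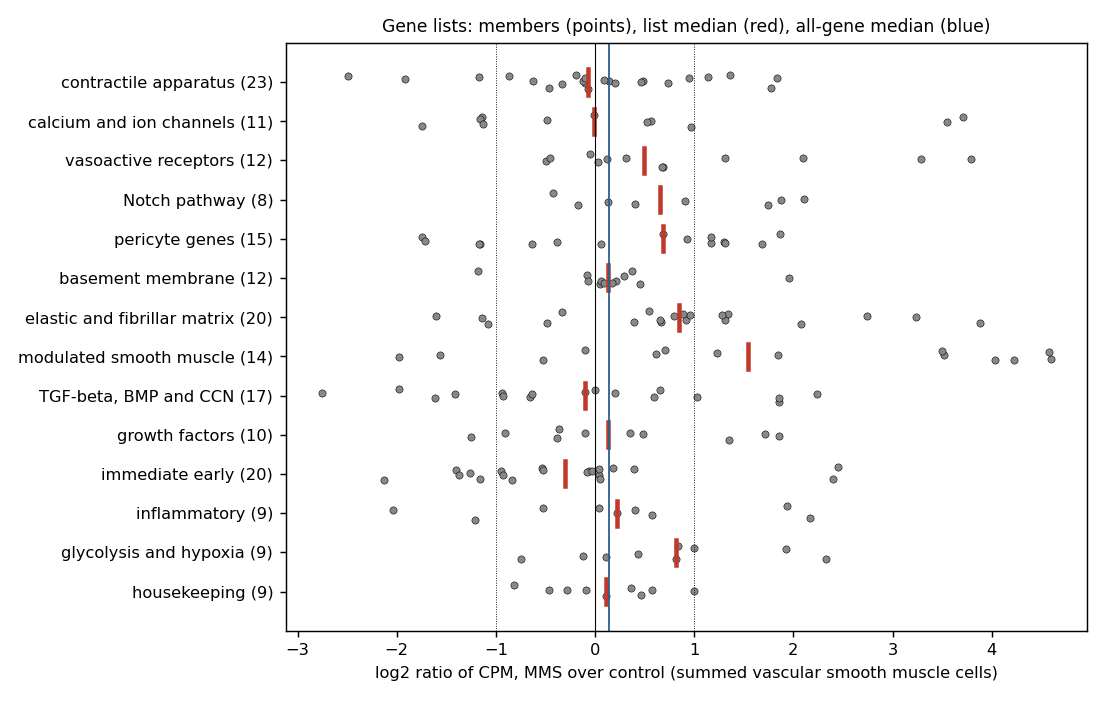
Log2 ratio of MMS over control for each measured gene (points) of 14 gene lists in the summed smooth muscle cells, with the list median (red bar), the median of all 2761 genes (blue line, 0.14) and the 2-fold lines (dotted). The contractile genes lie on both sides of 0 with a median of -0.07, and the list of modulated smooth muscle has a median of 1.54, or 0.97 without the cells that carry Pdgfra.

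The cells with Fst and without Pln were the ones both libraries had in number, 16 in MMS and 21 in control. On the control side these were all of the smooth muscle cells. Whether they were the same kind of cell in both libraries was not tested. Among them, 12 of 17 measured contractile genes were lower in MMS cells, 4 at least 2-fold and 0 at least 2-fold higher, with a median of -0.58, against 0.22 over the 950 genes. Cnn1 was at 51.4 CPM in MMS Fst cells and 562 CPM in control Fst cells, in 1 of 16 MMS and 12 of 21 control cells, and Lmod1 at 293 CPM in MMS Fst cells and 777 CPM in control Fst cells. Myh11, which the rule used, was at 1156 CPM in MMS Fst cells and 3681 CPM in control Fst cells. Igfbp5 was at 929.8 CPM in MMS Fst cells and 3166 CPM in control Fst cells, and Ccn2 at 97.6 CPM in MMS Fst cells and 581 CPM in control Fst cells. Rgs5 was at 11281 CPM in MMS Fst cells and 2772 CPM in control Fst cells (log2 ratio 2.02). These sums weigh deep cells most. The 3 MMS Fst cells of 25329, 32347 and 33796 UMIs, out of 194656 UMIs, held 1379 of the 2196 Rgs5 UMIs. Those cells had 2, 5 and 14 UMIs of Fst. In MMS cells with Fst the per-cell Rgs5 level had a lowest, median and highest of 748, 9126 and 23619 CPM, against 0, 1133 and 8205 CPM in control cells, so the ranges overlapped.

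Of 8 inflammatory genes measured among these cells, 7 were higher in MMS cells, 6 at least 2-fold, with a median of 1.44, against 64.3% of the 950 genes higher and 9.58% at least 2-fold higher. Members such as Ccl2 passed the minimum of 50 UMIs through MMS cells alone, so the count describes the genes that passed. Cxcl1 was at 1079 CPM in MMS Fst cells and 347 CPM in control Fst cells, in 12 of 16 MMS and 7 of 21 control cells. Nfkbia was at 385 CPM in MMS Fst cells and 56.2 CPM in control Fst cells, in 12 MMS and 5 control cells. Il1r1, the receptor for interleukin 1, was at 288 CPM in MMS Fst cells and 122 CPM in control Fst cells, and Ccl11, a chemokine for eosinophils, at 247 CPM in MMS Fst cells and 112 CPM in control Fst cells. Cxcl10 was found in 4 MMS cells and 1 control cell, and Ccl2 in 4 MMS and 0 control cells, with 65 of 68 UMIs in 2 cells. Thy1, a surface protein of perivascular fibroblasts and some mural cells, was at 919.6 CPM in MMS Fst cells and 140.5 CPM in control Fst cells, in 13 of 16 MMS and 4 of 21 control cells. Serpine2, an inhibitor of thrombin, was at 1973 CPM in MMS Fst cells and 356 CPM in control Fst cells, and Mgp at 6488 CPM in MMS Fst cells and 1705 CPM in control Fst cells. Of 14 elastic and fibrillar genes, 10 were higher, 5 at least 2-fold higher and 2 at least 2-fold lower, with a median of 0.74.

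The 15 MMS cells with neither gene overlapped the 16 with Fst in Rgs5 and Myh11, with a median Rgs5 level of 7289 CPM in the cells with neither and 9126 CPM in the cells with Fst. Of 1440 genes with at least 50 UMIs, 87 (6.04%) were at least 2-fold higher and 101 (7.01%) at least 2-fold lower in the cells with neither, and 48.4% were higher by any amount. Several of the higher ones rested on 1 to 3 cells, among them Spp1, Lum, Cilp, Igf1 and Top2a. Ednrb was at 358 CPM in the cells with neither, in 10 of 15, and 108 CPM in the cells with Fst, in 3 of 16. Lower in the cells with neither were Cxcl1 (75.8 CPM, against 1079 CPM in the cells with Fst), Id4 (135 CPM, against 832 CPM), the interferon regulatory factor Irf1 (33.7 CPM, against 293 CPM) and Procr, the protein C receptor (46.3 CPM, against 411 CPM).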

How the data were processed

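The authors deposited raw UMI counts for 1 MMS and 1 control library of mouse knee synovium, as integers with no scaling, per the file headers. The matrices carry the mark of Cell Ranger 5.0.0, but version 2.0.0 stands in the submitters' processing notes, with build mm10. Run options were not given. Of 32285 gene identifiers, 32158 matched GENCODE M21 (GRCm38), the source of gene coordinates. Counts of the gated cells were summed per library without any model, and ratios of the sums have exact conditional binomial intervals, shares exact Clopper-Pearson intervals and levels exact Poisson intervals (scipy 1.17.1, numpy 2.4.6, pandas 2.3.3, python 3.11.15, matplotlib 3.10.9). A gene with 0 UMIs in 1 group was put at 3 UMIs per library, which makes its ratio a bound. Doublets were called per library by scrublet in scanpy 1.11.5 with an expected rate of 0.06, and kept in the main values. The ratio calculation was tested on simulated data.

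Besides pericytes, the cells set beside the smooth muscle cells were gated in the same files. Endothelial cells had at least 3 UMIs of Cdh5 and Pecam1, fibroblasts a UMI of Pdgfra and at least 3 of Col1a1 and Dcn, and macrophages at least 3 of Csf1r and C1qa. All 3 lacked Myh11. The named genes were the 12 highest and 12 lowest ratios among genes with at least 50 UMIs in the higher library, a UMI in at least 10% of the cells there, and a level there at least that over all kept cells. Against pericytes, the 10 with the largest smaller-of-both ratios each way were named, among genes with at least 50 UMIs over both libraries in the higher set. Mitochondrial, ribosomal, haemoglobin, immunoglobulin, sex-linked and unnamed-model genes were left out. One of the 12 highest genes is not reported here. The members and gene lists were chosen with earlier results of these data known. List members given as examples, and the subsets by Pln and Fst, were chosen after their values were seen. Thinning drew each cell down to 2000 UMIs and left out shallower cells.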

Additional observations from a re-analysis of the deposited data

How the results depend on the processing

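No paired analysis was possible because there was 1 library per group. For the 329 and 149 genes at least 2-fold higher and lower in MMS cells (of 2761), a mitochondrial limit of 5% gave 184 and 65 of 1248, at most 2 UMIs of Rgs5 gave 181 and 57 of 588, cells thinned to 2000 UMIs gave 44 and 16 of 322, a minimum of 20 UMIs gave 720 and 536 of 5816, and one of 200 UMIs gave 56 and 23 of 546. No Prg4 limit gave 226 lower, and the gate on thinned cells 174 higher. The number of genes tested differs between these settings. Chosen after seeing the data, only cells with Fst gave 91 and 41 of 950, and leaving out the Pln cells gave 190 higher of 1863. The contractile median (-0.07) was -0.47 at 5% mitochondrial UMIs, 1.35 at low Rgs5, 0.53 with the thinned gate, -0.58 in cells with Fst and -1.12 without the Pln cells. The pericyte median (0.69) was 1.65 with 6 UMIs of Myh11 and Acta2 and 1.84 at low Rgs5, and turned round to -0.0645 with no Prg4 limit, where the vasoactive median (0.49) was 0.025. The elastic and fibrillar median (0.84) was -1.56 at low Rgs5 and 0.38 in thinned cells. The immediate early median (-0.31) was -1.09 at low Rgs5, -1.19 with the thinned gate and 0.0458 with each cell weighted equally. Turned round were Cnn1 (0.29 at low Rgs5), the proliferation list (-0.40 over 1 gene with the thinned gate), Sorbs2 in cells with Fst (-0.87) and without the Pln cells (-0.64), and the modulated list in cells with Fst (-0.0135). The cause was not tested. The contractile median had the other sign under 9 of its 21 alternatives. Of 181 alternative values that answer a comparison, 145 kept the sign and lay within the interval of the value given or, for a count, within 1.5 times. For list medians, 126 of the 181, the interval was instead a range of the ranked values of the list's genes. That range does not measure counting error and can be wide, as for the modulated list (-0.53 to 4.23), so lying within it asks little. Adra2a and Itpk1 had 0 control UMIs in thinned cells and no ratio there. The control cells' 106767 UMIs limit every gene below about 28.1 CPM there.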
